A study of Mus musculus with 1104 samples.

Results

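Hippocampus and neocortex of mice that had not yet received a high-fat diet were compared gene by gene, using the 12 of 1104 deposited RNA-seq libraries that were labelled with these organs and with 0 days of diet. Each organ gave 6 libraries, and 14372 of the 20646 gene symbols in the count table had enough reads in these libraries to be tested. The study profiled 13 organs of wild-type male mice, labelled C57BL/6 (C57BL/6J in the design text), before and during a diet with 60 kcal% fat that began at 8 weeks of age. Libraries labelled 0 days stand for the start of that diet, so both groups shared genotype, strain, sex and age and had received none of it. The design text gives 6 mice per time point, so the 6 libraries of an organ are taken as 6 mice, but it does not tie the replicate numbers of different organs to 1 mouse. Neither the labels nor the design text say where the organs were cut from their neighbours.

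The hippocampus is a fold of cortex with simple architecture: granule cells of the dentate gyrus project as mossy fibres to CA3 pyramidal cells, which project to CA1, with the small field CA2 between them. The neocortex is built of layers, with intratelencephalic neurons in the upper layers, thalamus-receiving neurons in layer 4, subcerebral projection neurons in layer 5 and corticothalamic neurons in layer 6. Excitatory neurons of the hippocampus arise from the medial pallium and those of the neocortex from the dorsal pallium, and inhibitory interneurons of both migrate in from the ventral forebrain.

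Total counts ran from 12063134 to 17248161 per library in hippocampus and from 12892133 to 15978113 in neocortex, so that a gene at 1 CPM (counts scaled to library size) rested on 12 to 17 reads. Mitochondrial transcripts made up 3.63% to 4.25% of the counts in hippocampus and 4.48% to 4.98% in neocortex. The first principal component, with 68.0% of the variance, separated the organs. Markers of tissue next to the organs varied between libraries. A list of 15 choroid plexus genes summed to 74.8, 1964 and 4682 CPM in hippocampus and 20.3, 25.7 and 249 CPM in neocortex (lowest, median and highest library), with neocortex replicates 1 and 4 above the other neocortex libraries and hippocampus replicate 5 below the other hippocampus libraries. A list of 19 striatal genes summed to 210.1, 229 and 248 CPM in hippocampus and 1323, 1391 and 1535 CPM in neocortex, with no overlap between the organs and little spread within either. In bulk tissue, fewer cells of a type and less RNA per cell cannot be told apart, and the part that neighbouring tissue played in any difference was not tested. The libraries were strand-specific per the labels, but the strand setting of the counting is not known here, so reads of overlapping antisense genes may be mixed.

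**Figure D1:**
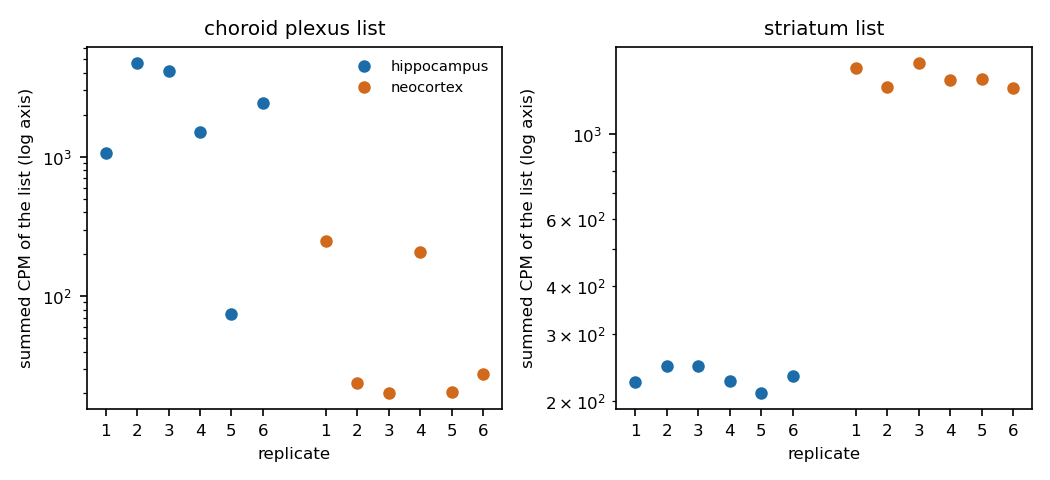
Summed CPM of the choroid plexus list and of the striatum list in each of the 12 libraries, on log axes, with 1 point per library. Choroid plexus transcripts spread from 74.8 to 4682 CPM among hippocampus libraries, whereas the striatum list lay between 1323 and 1535 CPM in each neocortex library and between 210.1 and 248 CPM in each hippocampus library.

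Of the 14372 genes tested, 8525 (59.3%) differed between the organs at an adjusted p under 0.05, 4327 (30.1%) higher in hippocampus and 4198 (29.2%) lower. Most differences were small: the median size of the log2 fold change was 0.225, and 90% of genes lay between -0.888 and 0.749. At least a 2-fold difference was called for 1014 genes (7.06%), of which 443 (3.08%) were higher in hippocampus and 571 (3.97%) lower, and at least a 4-fold difference for 257 (1.79%), 124 (0.863%) higher and 133 (0.925%) lower. The CPM values of the 6 hippocampus libraries did not overlap those of the 6 neocortex libraries for 5430 genes (37.8%), 2572 (17.9%) higher in hippocampus and 2858 (19.9%) lower. The counts for single gene groups below are read against these shares. In what follows, higher and lower mean higher or lower in hippocampus than in neocortex with an adjusted p under 0.05 by edgeR's quasi-likelihood test over all 14372 genes, a log2 fold change is hippocampus over neocortex, and 3 values given for an organ are its lowest, median and highest library.

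The 3 highest log2 fold changes among genes with at least 5 CPM in 1 organ belonged to genes of dentate granule cells. Dsp (desmoplakin, a component of desmosomes), at chr13:38151294-38198577 on GRCm38, had 52.6, 63.0 and 76.2 CPM in hippocampus and 0.271, 0.294 and 1.09 CPM in neocortex. Every hippocampus library was far above every neocortex library, with a log2 fold change of 6.98 ± 0.17 (SE, edgeR adjusted p = 3.51e-17). Lct, which encodes the disaccharidase lactase and is used as a granule cell marker, lay at chr1:128284756-128328318 and had 37.5, 47.0 and 56.3 CPM in hippocampus and 0.620, 0.771 and 1.76 CPM in neocortex, again without overlap, for a log2 fold change of 5.58 ± 0.15 (SE, edgeR adjusted p = 1.6e-16). C1ql2 (chr1:120340582-120343174), a secreted C1q-like protein of mossy fibre synapses, had 73.5, 80.5 and 94.9 CPM in hippocampus and 1.70, 1.92 and 2.44 CPM in neocortex, and its log2 fold change was 5.37 ± 0.09 (SE, edgeR adjusted p = 1.37e-19). Tdo2, which encodes the tryptophan dioxygenase that opens the kynurenine route, had 5.06, 5.48 and 5.79 CPM in hippocampus and 0.549, 0.637 and 0.816 CPM in neocortex. Its organs did not overlap and it was higher by 3.00 ± 0.16 (SE, edgeR adjusted p = 2.75e-12) on the log2 scale. Prox1, the homeobox factor that sets and maintains granule cell identity, had 95.7, 104 and 127 CPM in hippocampus and 13.6, 18.1 and 19.3 CPM in neocortex, with no overlap and a log2 fold change of 2.61 ± 0.08 (SE, edgeR adjusted p = 4.7e-16).

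Over the whole dentate list 12 of 15 tested members were higher and 2 lower, with a median log2 fold change of 0.81 against 0.0129 over all genes tested. Only 6 of the 15 were at least 2-fold higher, the sixth being Glis3, a zinc finger factor (1.16). Dock10 and Trpc6 were higher by 0.86 and 0.81, and Rfx3, Npnt, Plk5 and Stxbp6 by 0.41, 0.28, 0.28 and 0.19. Calb1 and Pdzd2 went the other way. Calb1 (calbindin, a calcium buffer also made by upper-layer neurons) had 103, 109 and 117 CPM in hippocampus and 127, 132 and 141 CPM in neocortex and was lower at -0.28 ± 0.04 (SE, edgeR adjusted p = 3.58e-06). Pdzd2, a multi-PDZ scaffold, was lower at -0.79 ± 0.06 (SE, edgeR adjusted p = 2.36e-10). Lrrtm4, a postsynaptic organizer, was not called at 0.05 (edgeR adjusted p = 0.489).

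Further genes in the 12 largest differences with no overlap between the organs were on none of the lists. Slc9a4, a sodium-hydrogen exchanger, had 14.3, 16.99 and 20.7 CPM in hippocampus and 0.321, 0.527 and 1.16 CPM in neocortex and was higher by 4.87 ± 0.18 (SE, edgeR adjusted p = 1.49e-14). Every hippocampus library was above every neocortex library. Tspan18, a tetraspanin, was higher by 4.20 ± 0.13 (SE, edgeR adjusted p = 5.49e-16), and Lefty1, a secreted antagonist of Nodal signalling, by 4.06 ± 0.22 (SE, edgeR adjusted p = 4.68e-12).

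Most pyramidal cell genes on the lists for the CA fields were also higher. For CA1, 6 of 8 tested members were higher and 1 lower, with a median of 0.86. Fibcd1, a fibrinogen-domain receptor for acetylated ligands (chr2:31813290-31846005), had 161, 191 and 214 CPM in hippocampus and 8.96, 11.2 and 12.0 CPM in neocortex. The organs were far apart, at 4.11 ± 0.08 (SE, edgeR adjusted p = 1.84e-18) on the log2 scale. Spink8, a Kazal-type protease inhibitor, was higher by 3.97 ± 0.18 (SE, edgeR adjusted p = 4.35e-13), and Gpr161, a receptor of the primary cilium, by 2.65 ± 0.11 (SE, edgeR adjusted p = 1.24e-13). Pou3f1 and Man1a were higher by 1.06 and 0.65. Wfs1 (wolframin), a common CA1 marker in sections, was not: it had 124, 136 and 167 CPM in hippocampus and 120.2, 139 and 145 CPM in neocortex, the organs overlapped, and the log2 fold change was 0.04 ± 0.06 (SE, edgeR adjusted p = 0.604). Ccn3 was slightly lower, at -0.13 ± 0.05 (SE, edgeR adjusted p = 0.0309), and changed sign when counts were corrected for GC content and length, to 0.0127. It also lost its call without hippocampus replicate 2, 3 or 6 or neocortex replicate 2, 4 or 6, each left out alone.

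For CA2, 5 of 9 tested members were higher and 2 lower. Ntf3 (neurotrophin-3) had 4.50, 5.57 and 6.82 CPM in hippocampus and 0.204, 0.650 and 1.51 CPM in neocortex, without overlap, and was higher by 2.97 ± 0.25 (SE, edgeR adjusted p = 4.11e-09). Amigo2, an adhesion protein that is a standard CA2 marker, was higher by 2.02 ± 0.09 (SE, edgeR adjusted p = 2.72e-13), and Rgs14, which limits plasticity in CA2, by 0.99 ± 0.05 (SE, edgeR adjusted p = 2.18e-12). Pcp4, a calmodulin regulator that marks CA2 but also deep cortical layers, ran the other way with 15.3, 15.7 and 19.7 CPM in hippocampus and 39.7, 44.0 and 48.1 CPM in neocortex, a log2 fold change of -1.39 ± 0.07 (SE, edgeR adjusted p = 1.07e-12). For CA3, 7 of 9 tested members were higher and 1 lower, with a median of 1.02. Iyd, an iodotyrosine deiodinase, had 3.08, 4.18 and 6.59 CPM in hippocampus and 0, 0.168 and 0.413 CPM in neocortex, with every hippocampus library above every neocortex library, and was higher by 4.54 ± 0.39 (SE, edgeR adjusted p = 4.55e-09). Grik4, a high-affinity kainate receptor subunit of mossy fibre synapses, was higher by 1.601 ± 0.06 (SE, edgeR adjusted p = 1.39e-14), Bok by 1.20, Cdh24 by 1.06 and Mas1, the angiotensin-(1-7) receptor, by 1.02. Coch, an extracellular matrix protein on this list, was lower at -2.12 ± 0.21 (SE, edgeR adjusted p = 3.48e-08). Of 4 mossy cell genes, Calb2 (calretinin) and Csf2rb2 were higher by 1.25 and 1.87, Calcrl was not called, and Drd2, which is also a striatal gene, was lower at -3.46.

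**Figure D2:**
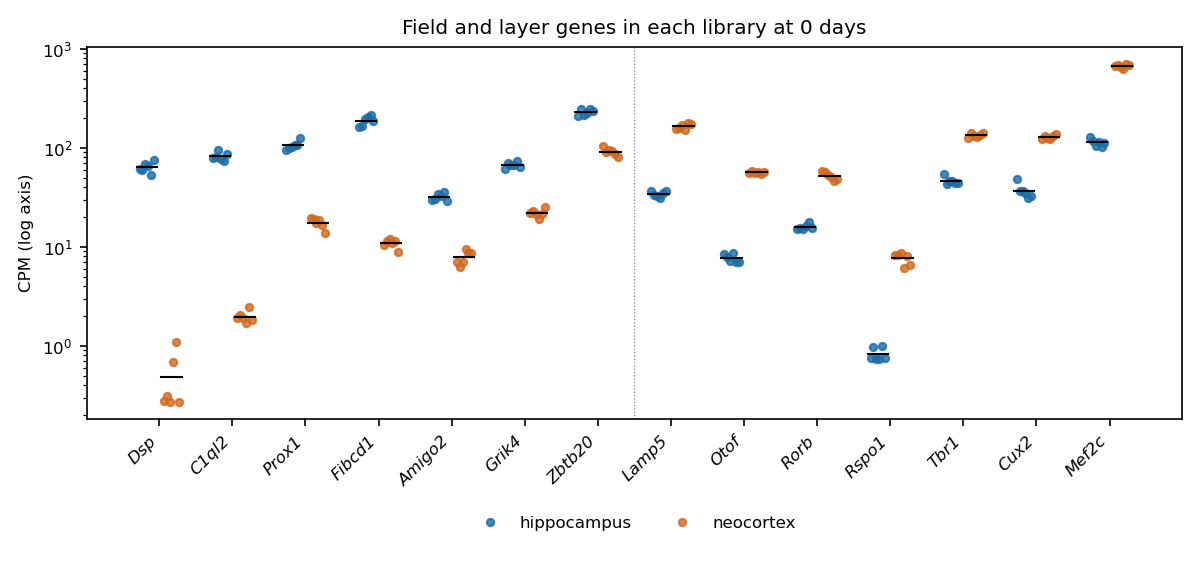
CPM of 14 genes in each of the 12 libraries (log axis), 7 of hippocampal fields and regulators on the left and 7 of neocortical layers and regulators on the right, with points for libraries and a bar for the mean of 6. The points of the organs do not overlap for any of the 14 genes. These genes were picked from longer lists, other members of which overlapped or went the other way. Of all tested genes, 37.8% did not overlap.

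Layer genes of the neocortex were lower in hippocampus for the upper layers, layer 4 and layer 6, but not for layer 5. For layer 2/3, 1 of 11 tested members was higher and 10 were lower, 7 of them at least 2-fold, with a median of -1.31. Otof (otoferlin, a calcium sensor of vesicle release) had 6.96, 7.51 and 8.58 CPM in hippocampus and 55.0, 56.5 and 58.9 CPM in neocortex. The organs were separated with little spread in either, at -2.89 ± 0.06 (SE, edgeR adjusted p = 3.6e-18). Lamp5, a lysosome-associated membrane protein of upper-layer neurons and some interneurons, had 30.9, 34.2 and 36.5 CPM in hippocampus and 151, 165 and 178 CPM in neocortex and was lower at -2.26 ± 0.05 (SE, edgeR adjusted p = 1.15e-17). Both organs were again apart. Stard8, a GTPase-activating protein, had 12.0, 14.02 and 14.8 CPM in hippocampus and 42.1, 47.5 and 54.1 CPM in neocortex and was lower at -1.81 ± 0.07 (SE, edgeR adjusted p = 2.23e-14), Cux2, a homeobox factor of upper layers, at -1.80 ± 0.08 (SE, edgeR adjusted p = 9.23e-14), and its relative Cux1 at -1.31. Mdga1 was the exception, higher in hippocampus by 1.32 ± 0.05 (SE, edgeR adjusted p = 2.91e-14). The difference of Pou3f3, a called -0.16, turned to 0.0172 with the GC and length correction.

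In layer 4, 1 of 7 members was higher and 6 were lower. Rspo1 (R-spondin 1, which amplifies Wnt signals) had 0.730, 0.750 and 0.986 CPM in hippocampus and 6.12, 8.20 and 8.57 CPM in neocortex, the organs did not overlap, and it was lower at -3.21 ± 0.16 (SE, edgeR adjusted p = 7.5e-13). Rorb, the nuclear receptor that drives layer 4 identity, had 15.1, 15.6 and 17.9 CPM in hippocampus and 46.7, 51.8 and 58.7 CPM in neocortex and was lower at -1.71 ± 0.06 (SE, edgeR adjusted p = 1.8e-14). Kcnh5, a potassium channel, was lower at -2.57. Scnn1a, whose promoter is used to target layer 4 cells, was higher instead, at 5.73, 6.91 and 8.24 CPM in hippocampus and 3.40, 4.22 and 5.16 CPM in neocortex, by 0.72 ± 0.14 (SE, edgeR adjusted p = 0.000184). In layer 6 and the subplate, 3 of 15 tested members were higher and 9 lower, with a median of -0.82. Tbr1, the T-box factor of corticothalamic neurons, had 43.5, 45.2 and 54.2 CPM in hippocampus and 125, 133 and 140.2 CPM in neocortex and was lower without overlap at -1.52 ± 0.05 (SE, edgeR adjusted p = 1.69e-15). Foxp2, a forkhead factor of layer 6 and of the striatum (chr6:14901349-15441977), was lower at -3.48 ± 0.16 (SE, edgeR adjusted p = 3.59e-13), and Syt6, a synaptotagmin, at -2.71 ± 0.11 (SE, edgeR adjusted p = 2.86e-14). Against the list, Crym, a thyroid hormone-binding protein, was higher by 1.66 ± 0.06 (SE, edgeR adjusted p = 2.59e-14) and Hs3st4, a heparan sulfate sulfotransferase, by 0.71.

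Layer 5 genes did not follow the other layers. Of 11 tested members 7 were higher in hippocampus and 3 lower, and the median was 0.34. Fezf2, the zinc finger factor that specifies subcerebral projection neurons, had 36.4, 42.3 and 46.4 CPM in hippocampus and 21.9, 24.5 and 24.9 CPM in neocortex. It was higher without overlap by 0.78 ± 0.06 (SE, edgeR adjusted p = 8.44e-10). Its target Bcl11b (CTIP2), also a factor of CA1 and dentate neurons, was higher by 0.47 ± 0.05 (SE, edgeR adjusted p = 1.1e-07), and Bcl6 and Npr3 by 0.95 and 0.78. Deptor, an inhibitor of mTOR, was the 1 member at least 2-fold lower, at -1.33 ± 0.07 (SE, edgeR adjusted p = 1.77e-12).

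Promoter sequences of 3 dentate genes with very large differences and of 3 layer genes are shown because the genes of each group moved together. They are the 250 bases before the RefSeq start on GRCm38.p6, 5′ to 3′ on the strand of the gene, with matches to CANNTG, the core recognised by basic helix-loop-helix factors such as Neurod proteins, in capitals. This core reads the same on both strands.
Dsp, chr13:38151044-38151293, plus strand: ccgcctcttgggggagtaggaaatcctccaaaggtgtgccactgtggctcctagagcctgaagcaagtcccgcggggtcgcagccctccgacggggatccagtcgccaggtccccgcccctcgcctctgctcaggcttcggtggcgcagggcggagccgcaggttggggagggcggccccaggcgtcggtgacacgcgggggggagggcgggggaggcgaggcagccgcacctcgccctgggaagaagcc
Lct, chr1:128328319-128328568, minus strand: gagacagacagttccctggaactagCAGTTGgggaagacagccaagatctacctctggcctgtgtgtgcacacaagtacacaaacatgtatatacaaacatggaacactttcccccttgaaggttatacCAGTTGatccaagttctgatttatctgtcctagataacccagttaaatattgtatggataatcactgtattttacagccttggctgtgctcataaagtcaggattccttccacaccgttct
C1ql2, chr1:120340332-120340581, plus strand: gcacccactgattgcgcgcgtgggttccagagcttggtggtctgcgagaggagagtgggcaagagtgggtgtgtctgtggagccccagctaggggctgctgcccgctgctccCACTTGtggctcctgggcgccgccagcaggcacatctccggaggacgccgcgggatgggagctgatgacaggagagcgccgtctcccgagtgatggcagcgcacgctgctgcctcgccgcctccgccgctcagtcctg
Stard8, chrX:99042331-99042580, plus strand: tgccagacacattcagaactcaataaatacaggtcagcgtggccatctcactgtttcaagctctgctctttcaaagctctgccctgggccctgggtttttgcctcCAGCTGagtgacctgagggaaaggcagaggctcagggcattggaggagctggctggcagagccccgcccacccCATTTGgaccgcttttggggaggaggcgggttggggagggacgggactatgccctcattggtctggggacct
Rspo1, chr4:124986180-124986429, plus strand: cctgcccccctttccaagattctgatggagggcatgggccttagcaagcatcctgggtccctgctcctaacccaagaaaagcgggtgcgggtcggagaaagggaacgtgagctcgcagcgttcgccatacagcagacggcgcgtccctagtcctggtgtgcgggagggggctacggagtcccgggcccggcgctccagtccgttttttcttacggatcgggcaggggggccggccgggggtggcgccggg
Tbr1, chr2:61804203-61804452, plus strand: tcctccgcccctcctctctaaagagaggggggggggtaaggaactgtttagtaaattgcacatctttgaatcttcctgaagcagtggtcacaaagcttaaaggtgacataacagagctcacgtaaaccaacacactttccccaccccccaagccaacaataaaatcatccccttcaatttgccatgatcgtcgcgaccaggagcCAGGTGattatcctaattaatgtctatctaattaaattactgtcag
Dsp and Rspo1 had no match in these windows, C1ql2 and Tbr1 had 1 each, and Lct and Stard8 had 2 each. A CANNTG match occurred in 66.0% of 27025 RefSeq mouse promoters cut in the same way, in 57.6% of the 11376 tested genes with such a promoter, in 64.2% of 318 genes at least 2-fold higher and in 61.9% of 423 genes at least 2-fold lower. The more specific word CAGATG on either strand, which is 1 of the CANNTG words, was found in 14.5% of all promoters, in 10.1% of those of tested genes, in 15.4% of the higher set and in 10.4% of the lower set. The palindromic core bound by Mef2 factors, CTA and TAG with any 4 bases between them, was found in 3.23% of all promoters, 2.69% of those of tested genes, 4.09% of the higher and 3.78% of the lower set. None of the 6 printed windows held CAGATG or the Mef2 core. These matches describe letters and say nothing on binding.

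A list of transcription factors linked to hippocampal development or identity, which includes Prox1 and Nr3c2, was higher in 9 of 10 tested cases, 5 of them at least 2-fold, and none was lower. Lhx9, a LIM-homeobox factor, had 14.1, 15.0 and 21.1 CPM in hippocampus and 0.747, 1.30 and 2.20 CPM in neocortex and was higher by 3.59 ± 0.18 (SE, edgeR adjusted p = 9.34e-13). Zbtb20, a repressor needed to form CA1, had 208, 232 and 246 CPM in hippocampus and 81.4, 90.9 and 104 CPM in neocortex, without overlap, and was higher by 1.32 ± 0.05 (SE, edgeR adjusted p = 5.11e-14). Dmrt3, a medial pallium factor, was nearly absent from neocortex: it had 0.880, 1.57 and 2.98 CPM in hippocampus and 0, 0 and 0.0631 CPM in neocortex, so that no fold is given. Emx2 and Lhx2, also on this list, differed little, at 0.53 and 0.24. Neurog2 overlapped and was not called.

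Regulators of neocortical neurons split. Mef2c, a MADS-box factor of activity-dependent synapse control, had 101, 113 and 130.1 CPM in hippocampus and 622, 679.7 and 704 CPM in neocortex. It was lower at -2.57 ± 0.05 (SE, edgeR adjusted p = 2.25e-18), and no library of 1 organ came near the other. Sox5, Nr2f1 and Lmo4 were lower at -0.81, -0.33 and -0.31. Some basic helix-loop-helix factors went the other way: Neurod6 had 157, 169 and 206 CPM in hippocampus and 42.6, 47.3 and 52.7 CPM in neocortex and was higher by 1.896 ± 0.06 (SE, edgeR adjusted p = 3.67e-15), Neurod2 by 1.29 ± 0.06 (SE, edgeR adjusted p = 4.39e-13), Bhlhe22 by 0.94 and, from the hippocampal list, Neurod1 by 0.97. Bhlhe40 and Npas4, of the same class, were not called at -0.10 and -0.63. Emx1, which marks the pallium as a whole, stood at -0.22 with overlapping libraries. Among Cajal-Retzius genes, Trp73 (p73), which these early-born marginal cells keep in the adult hippocampus, had 4.56, 6.77 and 7.96 CPM in hippocampus and 0.884, 1.06 and 1.79 CPM in neocortex and was higher by 2.45 ± 0.19 (SE, edgeR adjusted p = 8.76e-10), Ebf3 was higher by 0.87 with overlapping libraries and a call that was lost without hippocampus replicate 1 or 2 or neocortex replicate 1, 2 or 5, and Reln (reelin), made in the adult mainly by interneurons, was lower at -1.08 ± 0.05 (SE, edgeR adjusted p = 5.43e-13).

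**Figure D3:**
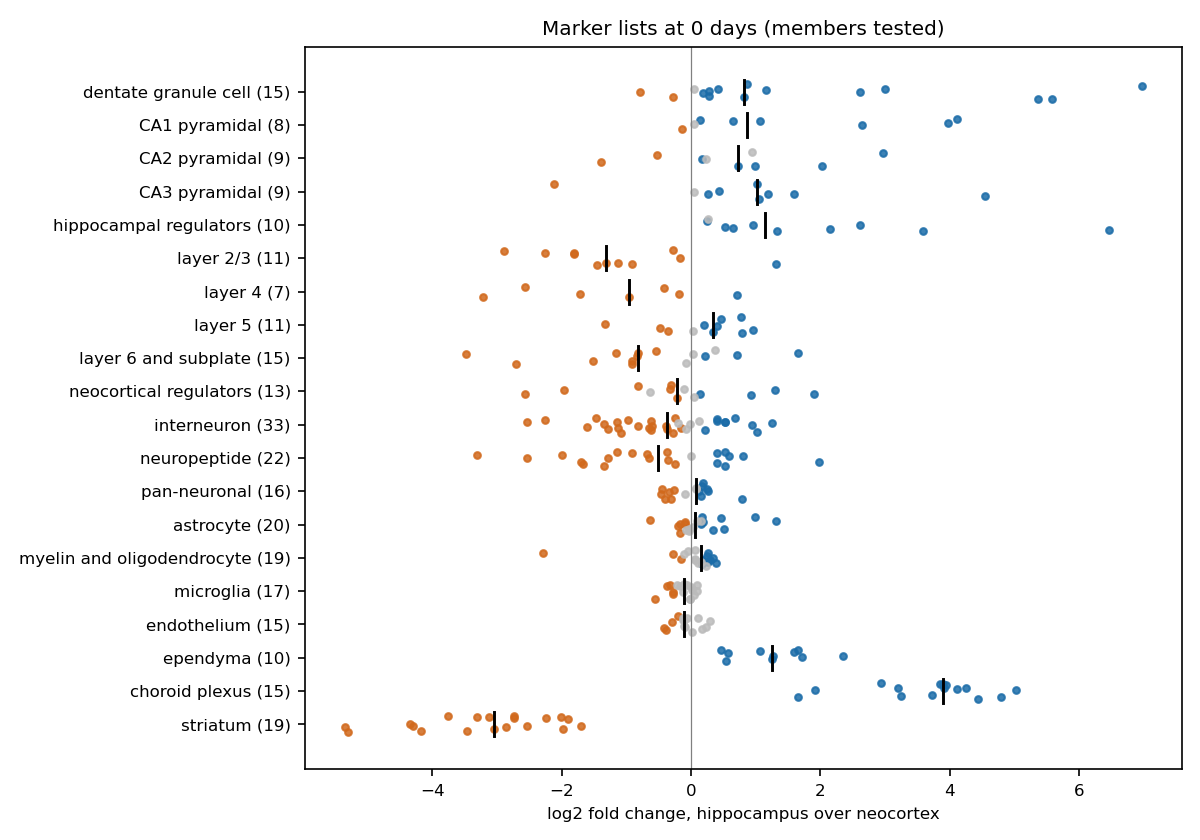
Log2 fold change of every tested member of 20 marker lists (number tested in brackets), with blue points higher in hippocampus and orange points lower at an adjusted p under 0.05, grey points not called and a black bar at the median of the list. Hippocampal field lists lie mostly to the right with medians from 0.73 to 1.02, layer 2/3 to the left at -1.31, and the striatum list wholly to the left at -3.04.

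Interneuron genes were more often lower than higher: of 33 tested members 9 were higher and 20 lower, with a median of -0.37. Gad2, a GABA-synthesising enzyme, had 91.3, 113 and 118 CPM in hippocampus and 206, 215 and 240.2 CPM in neocortex and was lower at -0.98 ± 0.05 (SE, edgeR adjusted p = 2.45e-12), whereas its partner Gad1, picked here after its value was seen, was lower at -0.28. The subclass markers did not move as 1 group. Vip had 12.1, 12.7 and 14.3 CPM in hippocampus and 27.8, 32.4 and 35.03 CPM in neocortex and was lower at -1.29 ± 0.07 (SE, edgeR adjusted p = 2.9e-12). Sst (somatostatin) had 159.7, 190.3 and 224 CPM in hippocampus and 133, 142 and 157 CPM in neocortex and was higher by 0.40 ± 0.07 (SE, edgeR adjusted p = 3.13e-05), and Cck was higher by 0.41. Pvalb overlapped, at 22.4, 29.7 and 31.2 CPM in hippocampus and 28.1, 34.7 and 38.5 CPM in neocortex, and was lower at -0.25 ± 0.09 (SE, edgeR adjusted p = 0.0194). Sst, Cck and Pvalb were chosen after their values were seen. Striatal projection neurons also make Gad2, and the striatum list summed to at least 1323 CPM in each neocortex library against at most 248 CPM in hippocampus. Its part in the difference of Gad2 was not tested.

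Neuropeptide genes were lower in 14 and higher in 7 of 22 tested cases. Penk (proenkephalin) had 17.2, 20.6 and 24.3 CPM in hippocampus and 191, 207 and 222 CPM in neocortex, without overlap, and was lower at -3.31 ± 0.07 (SE, edgeR adjusted p = 2.25e-18). Tac1 (substance P precursor) was lower at -2.54 ± 0.08 (SE, edgeR adjusted p = 7.2e-16) and Pdyn (prodynorphin) at -1.71 ± 0.07 (SE, edgeR adjusted p = 2.19e-14), and all 3 of these are also on the striatum list. Among members that are not, Cartpt and Adcyap1, which encode CART and PACAP, were lower at -1.99 and -1.67, and Grp (gastrin-releasing peptide) was the 1 member at least 2-fold higher, at 14.7, 17.7 and 19.2 CPM in hippocampus and 3.13, 4.22 and 6.03 CPM in neocortex, a log2 fold change of 1.99 ± 0.12 (SE, edgeR adjusted p = 3.43e-11). These 3 were chosen after their values were seen.

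**Figure D4:**
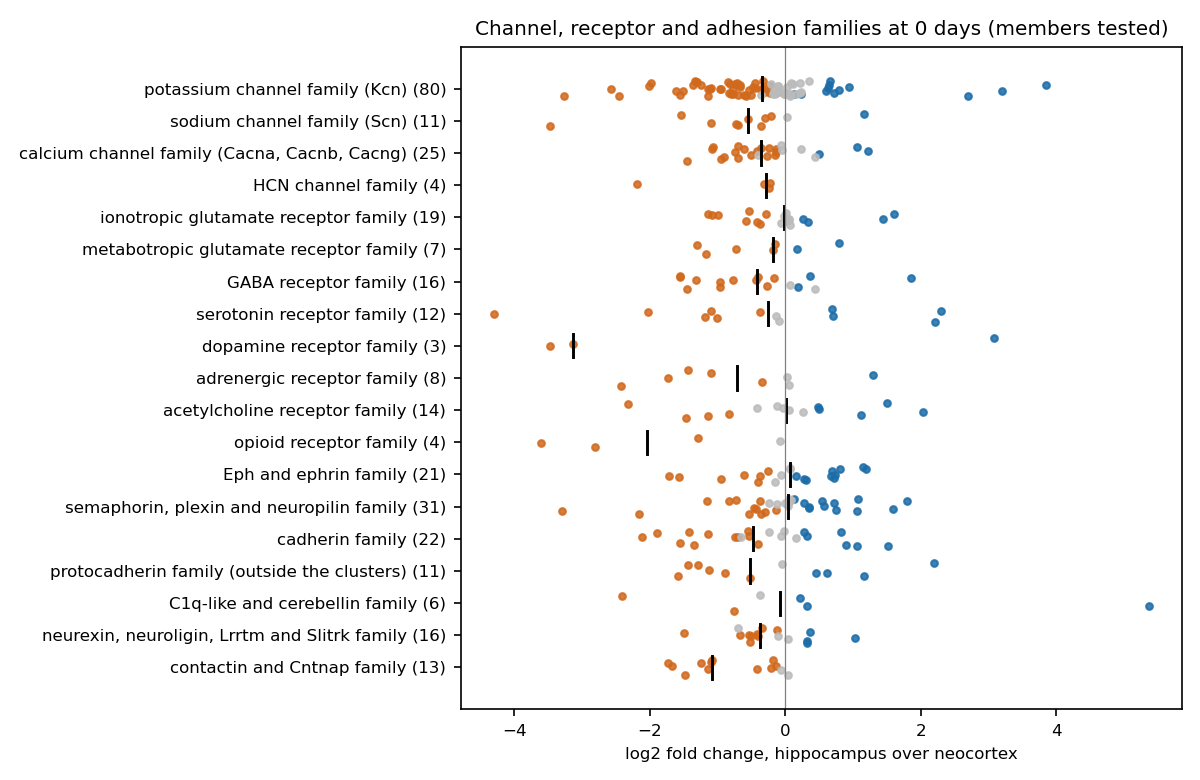
Log2 fold change of every tested member of 19 channel, receptor and adhesion gene families, with blue points higher in hippocampus and orange points lower at an adjusted p under 0.05, grey points not called and a black bar at the family median. Families rarely move as a whole: the serotonin receptors spread from -4.30 (Htr1d) to 2.30 (Htr5b) and the dopamine receptors from -3.46 (Drd2) to 3.08 (Drd5). Htr1d had at most 0.401 CPM in hippocampus, so the size of its fold rests on few reads.

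Receptors for fast transmission differed by subunit. Among ionotropic glutamate receptors 4 of 19 tested members were higher and 8 lower. Gria1, the AMPA receptor subunit whose trafficking underlies long-term potentiation, had 1003, 1059.8 and 1190.4 CPM in hippocampus and 377, 394 and 418 CPM in neocortex, with no overlap and a log2 fold change of 1.44 ± 0.04 (SE, edgeR adjusted p = 5.6e-16). Gria4 had 50.5, 55.6 and 59.0 CPM in hippocampus and 106, 117 and 125 CPM in neocortex and was lower at -1.08 ± 0.05 (SE, edgeR adjusted p = 1.12e-13), Gria3 was lower at -0.57, and Gria2, the subunit that blocks calcium entry, was not called at -0.06 (edgeR adjusted p = 0.300). Per kilobase of exon, the level of Gria1 was 179 RPKM in hippocampus and 65.6 in neocortex, that of Gria2 44.2 RPKM in hippocampus and 46.2 in neocortex, that of Gria3 19.3 RPKM in hippocampus and 28.8 in neocortex and that of Gria4 8.77 RPKM in hippocampus and 18.5 in neocortex. By this measure Gria1 was the highest of these AMPA subunits in both organs, with a wider lead in hippocampus. It divides by the merged length of all annotated exons of a gene. Ranks between genes depend on that length, and no other length was tried. NMDA receptor genes differed little: Grin2a was higher by 0.34, Grin2b lower at -0.41, and Grin1 was not called at 0.07. Of the metabotropic receptors, 2 of 7 were higher and 5 lower, among them Grm4 and Grm8, at -1.30 and -1.17.

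Subunits of GABA receptors were lower in 11 and higher in 3 of 16 tested cases. Gabra5, the α5 subunit of tonic, mainly extrasynaptic receptors, had 157, 169 and 192 CPM in hippocampus and 44.4, 47.7 and 51.0 CPM in neocortex, and was higher without overlap by 1.85 ± 0.05 (SE, edgeR adjusted p = 9.41e-17). Gabra3 had 47.8, 51.5 and 55.6 CPM in hippocampus and 132, 140.1 and 148 CPM in neocortex and was lower at -1.45 ± 0.04 (SE, edgeR adjusted p = 2.26e-16), and Gabrd, the δ subunit, was lower at -1.55 ± 0.06 (SE, edgeR adjusted p = 1.95e-14). Per kilobase of exon, the level of Gabra5 was 58.2 RPKM in hippocampus and 16.1 in neocortex, and that of Gabra3 13.1 RPKM in hippocampus and 35.8 in neocortex. By this measure, which rests on the same exon lengths, Gabra5 stood above Gabra3 in hippocampus and below it in neocortex. Gabrb2, a β subunit, was lower at -1.55 ± 0.06 (SE, edgeR adjusted p = 2.87e-14). Gabrb2, Gria2, Gria3 and the NMDA receptor genes were named after their values were seen.

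Receptors for serotonin, dopamine and noradrenaline had members far higher in each organ. Htr4, a Gs-coupled serotonin receptor, had 9.05, 12.4 and 13.3 CPM in hippocampus and 2.12, 2.57 and 2.90 CPM in neocortex and was higher by 2.22 ± 0.12 (SE, edgeR adjusted p = 5.1e-12), and Htr5b was higher by 2.30 ± 0.17 (SE, edgeR adjusted p = 6.43e-10). Htr2a, the Gq-coupled receptor on which classical hallucinogens act, had 9.35, 10.6 and 14.4 CPM in hippocampus and 39.4, 46.2 and 50.1 CPM in neocortex and was lower at -2.02 ± 0.09 (SE, edgeR adjusted p = 4.75e-13). The organs did not overlap for any of the 3, and over the family 4 of 12 were higher and 6 lower. Htr1d and Htr1a were chosen after their values were seen: Htr1d was at most 0.401 CPM in hippocampus and at least 1.97 CPM in neocortex, and Htr1a was higher by 0.71. Of the dopamine receptors, Drd5 had 11.2, 14.7 and 16.98 CPM in hippocampus and 1.03, 1.64 and 2.59 CPM in neocortex and was higher by 3.08 ± 0.16 (SE, edgeR adjusted p = 1.95e-12). Drd1 had 3.21, 4.63 and 5.09 CPM in hippocampus and 36.1, 38.9 and 41.0 CPM in neocortex and was lower at -3.13 ± 0.09 (SE, edgeR adjusted p = 1.49e-16), and Drd2 at -3.46 ± 0.11 (SE, edgeR adjusted p = 7.06e-16), both on the striatum list. Among noradrenaline receptors Adra1d was higher by 1.29 ± 0.09 (SE, edgeR adjusted p = 1.27e-10), while Adra1b and Adra1a were lower at -2.42 ± 0.14 (SE, edgeR adjusted p = 8.03e-12) and -1.73, within a family of 1 higher and 5 lower of 8.

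Of 14 acetylcholine receptor genes 5 were higher and 4 lower, with Chrm1, the main postsynaptic muscarinic receptor, higher by 0.49 ± 0.05 (SE, edgeR adjusted p = 2.21e-08) and Chrm2 and Chrm4 lower at -1.47 and -1.14. Opioid receptors were lower in 3 of 4 cases. Oprk1, the κ receptor, which binds dynorphin (chr1:5588466-5606131), had 0.730, 0.776 and 1.97 CPM in hippocampus and 11.4, 13.9 and 14.6 CPM in neocortex, without overlap, and was lower at -3.60 ± 0.18 (SE, edgeR adjusted p = 1.87e-12). Oprm1 (μ) and Oprd1 (δ) were lower at -2.80 and -1.29, and Oprl1, named after its value was seen, was not called at -0.08.

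Families of potassium, sodium and calcium channel symbols, which also hold inward rectifier, leak and auxiliary subunits, were lower more often than higher. Potassium channel genes were lower in 46 and higher in 12 of 80 tested cases, sodium channels in 9 and 1 of 11, and calcium channels in 17 and 3 of 25. Kcnh4 had 2.96, 3.09 and 4.32 CPM in hippocampus and 28.8, 32.8 and 34.5 CPM in neocortex and was lower at -3.26 ± 0.09 (SE, edgeR adjusted p = 1.23e-16). Kcnt1, a sodium-activated channel, was lower at -1.50 ± 0.04 (SE, edgeR adjusted p = 4.51e-16). Scn4b, the β4 subunit of resurgent sodium current, had 18.1, 21.9 and 24.4 CPM in hippocampus and 225, 237 and 271 CPM in neocortex, with no overlap, and was lower at -3.47 ± 0.06 (SE, edgeR adjusted p = 8.02e-19), and Scn1a was lower at -1.10. The striatum list summed to at least 1323 CPM in each neocortex library and at most 248 CPM in each hippocampus library. Its part in the differences of Kcnh4, Scn4b and, above, Chrm4 was not tested. Scn3b was the sodium channel gene that was higher, by 1.17 ± 0.05 (SE, edgeR adjusted p = 3.29e-13). Among calcium channel genes, Cacna1h, the T-type channel Cav3.2, was higher by 1.23 ± 0.05 (SE, edgeR adjusted p = 1.9e-13), Cacng8, an AMPA receptor auxiliary subunit enriched in hippocampus, by 1.06 ± 0.04 (SE, edgeR adjusted p = 1.31e-14), and Cacnb4 was lower at -1.44 ± 0.04 (SE, edgeR adjusted p = 4.79e-16). Hcn4, a pacemaker channel, was lower at -2.19 ± 0.11 (SE, edgeR adjusted p = 2.59e-12). The 3 potassium channel genes at least 2-fold higher included Kcne2 and Kcnj13, both on the choroid plexus list, at 3.85 and 3.21, and Kcng2, at 2.69, and these 3 were named after their values were seen.

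Calcium signalling genes held some of the most abundant transcripts with a large difference. Cabp7, a calcium-binding protein of the secretory pathway, had 279, 315 and 351 CPM in hippocampus and 21.4, 22.8 and 25.3 CPM in neocortex, and was higher without overlap by 3.78 ± 0.06 (SE, edgeR adjusted p = 1.22e-19). Hpca (hippocalcin), a neuronal calcium sensor, had 1386, 1578 and 1740.3 CPM in hippocampus and 458, 474 and 503 CPM in neocortex, and was higher by 1.72 ± 0.05 (SE, edgeR adjusted p = 4.61e-16). Camk2n1, an inhibitor of CaM kinase II, ran opposite, with 806, 848 and 969.6 CPM in hippocampus and 2767, 2848 and 2979.8 CPM in neocortex, lower at -1.74 ± 0.04 (SE, edgeR adjusted p = 2.23e-17). Camk2b, a subunit of that kinase, was higher by 0.79 ± 0.04 (SE, edgeR adjusted p = 3.82e-13), and Camk2a, named after its value was seen, by 0.26. Over the list of calcium-binding proteins 5 of 18 tested members were higher and 12 lower. Pan-neuronal genes differed little, with 7 higher and 6 lower of 16 and a median of 0.08, from -0.47 for Snap25 to 0.79 for Camk2b.

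The receptors for corticosterone differed in opposite directions. Nr3c2, the mineralocorticoid receptor, which binds corticosterone with high affinity, had 144, 164 and 181 CPM in hippocampus and 32.8, 36.6 and 40.2 CPM in neocortex and was higher by 2.15 ± 0.06 (SE, edgeR adjusted p = 2.18e-16). Nr3c1, the glucocorticoid receptor, had 65.7, 69.6 and 77.2 CPM in hippocampus and 103, 111.9 and 118 CPM in neocortex and was lower at -0.66 ± 0.04 (SE, edgeR adjusted p = 9.69e-11). Hsd11b1, which regenerates corticosterone inside cells, was higher by 1.38 ± 0.07 (SE, edgeR adjusted p = 9.69e-13). The list that holds these genes and targets of the receptors had 3 higher and 4 lower of 11 members. Over all tested genes the shares were 30.1% higher and 29.2% lower. Immediate early genes were lower in 9 and higher in 3 of 18 cases. Egr1 had 104, 129.9 and 173 CPM in hippocampus and 278, 313 and 377 CPM in neocortex and was lower at -1.25 ± 0.09 (SE, edgeR adjusted p = 6.69e-10), and Egr3 at -1.07 ± 0.06 (SE, edgeR adjusted p = 2.04e-11). Nr4a3 and Jun were higher by 1.22 ± 0.09 (SE, edgeR adjusted p = 4.72e-10) and 1.08 ± 0.05 (SE, edgeR adjusted p = 1.71e-12). Fos and Arc, chosen after their values were seen, overlapped between the organs: Fos had 7.33, 13.5 and 30.4 CPM in hippocampus and 16.1, 33.2 and 62.2 CPM in neocortex and was lower at -1.24 ± 0.35 (SE, edgeR adjusted p = 0.00466), and Arc, at -0.74, was not called (edgeR adjusted p = 0.0731). Without the 5 libraries richest in choroid plexus transcripts for their organ, a choice made after seeing the data, 5 immediate early genes were lower in place of 9. Over all genes 3662 were lower in this smaller fit in place of 4198, and the effect of having fewer libraries was not told apart.

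Genes of neurogenesis, which continues in the dentate gyrus of adult rodents, had no common direction: 6 of 18 were higher and 7 lower. Dcx (doublecortin), the usual marker of newborn neurons, had 20.4, 23.5 and 28.6 CPM in hippocampus and 44.7, 52.9 and 56.9 CPM in neocortex, without overlap, and was lower at -1.13 ± 0.08 (SE, edgeR adjusted p = 4.26e-10). Stmn1, a microtubule regulator, was lower at -0.92 ± 0.05 (SE, edgeR adjusted p = 1.16e-11). Hopx, a marker of quiescent neural stem cells and of some astrocytes, had 50.3, 57.8 and 61.4 CPM in hippocampus and 23.9, 24.9 and 27.7 CPM in neocortex and was higher by 1.17 ± 0.05 (SE, edgeR adjusted p = 2.44e-13). Igfbpl1, a marker of neuroblasts, had 4.38, 6.00 and 7.51 CPM in hippocampus and 1.29, 1.62 and 2.45 CPM in neocortex and was higher by 1.79 ± 0.17 (SE, edgeR adjusted p = 3.01e-08). Mki67, which marks dividing cells, was low in both organs and not called, at 2.96, 3.79 and 4.70 CPM in hippocampus and 3.05, 4.02 and 4.35 CPM in neocortex (edgeR adjusted p = 0.777). Igfbpl1 and Mki67 were chosen after their values were seen.

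Guidance genes had ligands and receptors on both sides. Sema3a, a secreted repellent, had 2.40, 3.57 and 4.36 CPM in hippocampus and 30.5, 33.7 and 37.9 CPM in neocortex, with no overlap, and was lower at -3.29 ± 0.12 (SE, edgeR adjusted p = 6.67e-15). Plxnd1, a plexin receptor of class 3 semaphorins, had 26.7, 33.0 and 42.2 CPM in hippocampus and 143, 147 and 153 CPM in neocortex and was lower at -2.15 ± 0.08 (SE, edgeR adjusted p = 5.55e-15), whereas Nrp1, the co-receptor of Sema3a, had 63.5, 70.9 and 78.8 CPM in hippocampus and 19.3, 20.0 and 23.0 CPM in neocortex and was higher by 1.80 ± 0.06 (SE, edgeR adjusted p = 1.68e-15). The family was split evenly, 12 higher and 12 lower of 31. Of Eph receptors and ephrins 10 were higher and 7 lower of 21, with Epha7 at 1.20, Efnb3 at 0.69 and Efnb2 at -0.94. Slit1, a repellent of the Slit family, had 312, 326 and 355 CPM in hippocampus and 73.9, 77.0 and 90.3 CPM in neocortex and was higher by 2.04 ± 0.05 (SE, edgeR adjusted p = 8.03e-17).

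Contactins and their relatives had the lowest median of the 19 families after the dopamine and opioid receptors. None of 13 tested members was higher, 11 were lower, 7 of them at least 2-fold, and the median was -1.08. Cntn4 had 14.5, 15.7 and 19.1 CPM in hippocampus and 48.8, 54.0 and 57.6 CPM in neocortex and was lower at -1.73 ± 0.07 (SE, edgeR adjusted p = 2.09e-14), and Cntnap5a and Cntn3 were lower at -1.24 and -1.13. Cadherins were lower in 11 and higher in 6 of 22 cases, with Cdh6, Cdh4 and Cdh22 at -1.89, -1.55 and -1.41. Among unclustered protocadherins Pcdh20 had 109, 120.3 and 143 CPM in hippocampus and 24.1, 26.8 and 30.4 CPM in neocortex and was higher by 2.19 ± 0.07 (SE, edgeR adjusted p = 8.81e-16), while Pcdh10 and Pcdh7 were lower at -1.29 ± 0.03 (SE, edgeR adjusted p = 9.41e-17) and -1.58. Synaptic organizers also differed in both directions: C1ql2 was higher and Cbln2, a cerebellin, lower at -2.41 ± 0.08 (SE, edgeR adjusted p = 4.56e-15), and Lrrtm1 was higher by 1.04 ± 0.04 (SE, edgeR adjusted p = 9.5e-14) and Lrrtm3 lower at -1.50 ± 0.07 (SE, edgeR adjusted p = 1.95e-13).

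Genes of the Wnt route were called lower about as often as all tested genes and higher less often. Of 42 tested 7 were higher and 14 lower, against 30.1% and 29.2% of all tested genes. By at least 2-fold 0 were higher and 6 lower, against 3.08% and 3.97% of all tested genes. Wnt7b was higher by 0.67 ± 0.05 (SE, edgeR adjusted p = 1.83e-09), and Wnt9a and the receptor Fzd3 were lower at -1.38 and -0.998. Of 15 genes of retinoic acid handling 5 were higher and 4 lower, 1 and 3 by at least 2-fold. Stra6, the retinol importer, was higher by 1.42 ± 0.16 (SE, edgeR adjusted p = 2.16e-07), and the receptors Rarb and Rxrg, both also on the striatum list, were lower at -1.98 ± 0.08 (SE, edgeR adjusted p = 6.7e-14) and -1.90.

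Glial and vascular lists had medians close to that of all genes. Astrocyte genes were higher in 8 and lower in 6 of 20 cases with a median of 0.06. Gfap, the intermediate filament of astrocytes, had 412, 473 and 514 CPM in hippocampus and 178, 189.5 and 195 CPM in neocortex and was higher without overlap by 1.32 ± 0.05 (SE, edgeR adjusted p = 4.52e-15). Slc1a2 (GLT-1), the main glutamate transporter, had 2512, 2743 and 2976 CPM in hippocampus and 4117, 4289 and 4419.6 CPM in neocortex and was lower at -0.64 ± 0.04 (SE, edgeR adjusted p = 1.11e-11). Myelin genes were higher in 8 and lower in 3 of 19, with Mbp (myelin basic protein) at 0.27 ± 0.05 (SE, edgeR adjusted p = 0.000273) and overlapping libraries. Klk6, a protease of mature oligodendrocytes, was the 1 member of that list beyond 2-fold, lower at -2.29 ± 0.26 (SE, edgeR adjusted p = 2.34e-07). Microglial genes were lower in 5 of 17 cases and endothelial genes in 4 of 15, none was higher with all libraries, and neither list had a member beyond 2-fold. Leaving out 1 library made 1 endothelial gene higher (hippocampus replicate 1, 2 or 5, neocortex replicate 2 or 6) or 1 microglial gene (neocortex replicate 4). Cx3cr1 and Cldn5, which define these cells, stood at -0.28 and, not called, 0.18. Of 5 blood genes, whose reads can be shared between paralogs, 0 were higher and 1 was lower. That was Hbb-bt, at -0.83 ± 0.17 (SE, edgeR adjusted p = 0.000397) with overlapping libraries, and Hbb-bs was not called at -0.17. Genes of oligodendrocyte precursors were higher in 6 and lower in 4 of 14 cases, mural cell genes in 5 and 3 of 12, and hypothalamic peptide genes in 0 and 3 of 4.

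Genes of ventricle-lining tissue were higher in hippocampus, with wide spread. All 10 ependymal genes tested were higher, 7 of them at least 2-fold. Foxj1, the factor that drives motile cilia, had 9.92, 19.4 and 26.9 CPM in hippocampus and 6.95, 7.22 and 9.33 CPM in neocortex, without overlap, and was higher by 1.25 ± 0.17 (SE, edgeR adjusted p = 3.03e-06). All 15 choroid plexus genes were at least 2-fold higher, with a median of 3.89. Ttr (transthyretin), the carrier of thyroxine in cerebrospinal fluid and the most abundant of them, had 905, 4013, 3575, 1261, 35.3 and 2056 CPM in hippocampus replicates 1 to 6 and 188, 2.59, 3.13, 160, 3.40 and 4.55 CPM in neocortex replicates 1 to 6. The organs overlapped, since hippocampus replicate 5 lay under neocortex replicates 1 and 4, and the log2 fold change was 5.02 ± 1.00 (SE, edgeR adjusted p = 0.000231). Kl (klotho) and Sostdc1, which ranked among the 12 largest differences, and Calml4, a calmodulin-like protein also among them, had larger standard errors than Dsp, Lct and C1ql2: they were higher by 3.92 ± 0.46 (SE, edgeR adjusted p = 4.46e-07), 3.94 ± 0.52 (SE, edgeR adjusted p = 1.96e-06) and 4.02 ± 0.56 (SE, edgeR adjusted p = 4.01e-06). A further fit left out hippocampus replicates 2, 3 and 6 and neocortex replicates 1 and 4, a choice made after the level of Ttr was seen. It kept hippocampus replicates 1 and 4, at 1059 and 1508 CPM of the choroid plexus list, beside neocortex libraries of at most 27.6 CPM. Choroid plexus RNA was thus not removed, and the fit cannot show the organs without it. In it 11 of 12 tested choroid plexus genes were higher and none lower, with Ttr at 7.72 (edgeR adjusted p = 2.74e-06). Kl stood at 3.66 (edgeR adjusted p = 2e-07) and Calml4 at 4.24 (edgeR adjusted p = 1.64e-05). In the same fit Dsp stood at 6.86 (edgeR adjusted p = 3.38e-13) and Otof at -2.84 (edgeR adjusted p = 3.08e-13). The calls of meningeal genes changed with the libraries used. With all libraries 5 of 12 were higher and none lower, but 2 were higher and 2 lower without these 5 libraries. Without hippocampus replicate 2 or 3 or neocortex replicate 1 or 3 alone, 3 were higher. Without the same 5 libraries the number of mural cell genes that were higher went from 5 to 2, of astrocyte genes that were lower from 6 to 3, and of metabotropic glutamate receptors that were lower from 5 to 3. Calls over all genes fell as well in this smaller fit, from 4327 to 3480 higher and from 4198 to 3662 lower. The effect of having fewer libraries was not told apart from that of the libraries left out.

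All 19 genes on the striatum list were at least 2-fold lower in hippocampus, with a median of -3.04, although none of the 13 organs was striatum. Adora2a, the adenosine receptor of striatopallidal neurons (chr10:75316877-75334784), had 1.69, 2.07 and 2.92 CPM in hippocampus and 36.9, 39.9 and 50.5 CPM in neocortex and was lower at -4.29 ± 0.12 (SE, edgeR adjusted p = 1.15e-16). Rgs9, which speeds the shut-off of G proteins, had 13.4, 15.9 and 17.7 CPM in hippocampus and 96.8, 103 and 116 CPM in neocortex and was lower at -2.73 ± 0.06 (SE, edgeR adjusted p = 5.12e-18). No hippocampus library came near a neocortex library for either gene. Of the 12 largest differences on the neocortical side by the naming rule, Adora2a, Sh3rf2 and Gpr6 were on the striatum list and Dkkl1 and Oprk1 on the list for claustrum and piriform cortex. Among the others, whose levels in those neighbouring tissues were not measured, were Cd4 at -4.50 ± 0.25 (SE, edgeR adjusted p = 5.04e-12), Igfn1 at -4.24 ± 0.20 (SE, edgeR adjusted p = 5.96e-13), Rasgef1c at -3.67, Foxp2 and Scn4b. Sh3rf2, Gpr6 and Dkkl1 stood at -4.18, -3.76 and -3.75. Thalamic and habenular genes were mixed, 3 higher and 5 lower of 16, with Prkcd at 24.2, 32.3 and 38.7 CPM in hippocampus and 11.2, 15.4 and 33.2 CPM in neocortex, higher by 0.79 ± 0.19 (SE, edgeR adjusted p = 0.00163) but with overlapping libraries. Genes of claustrum and piriform cortex were higher in 3 and lower in 4 of 8 cases.

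The other 2 forebrain regions sequenced at 0 days, hypothalamus and olfactory bulb, were read for the same genes. All 12 of the largest hippocampal differences had their highest mean of the 4 regions in hippocampus, whereas 10 of the 12 largest neocortical ones were highest in neocortex and 2, Oprk1 and Foxp2, in hypothalamus. These genes were chosen as far apart between hippocampus and neocortex in the same libraries. Only their ranks against hypothalamus and olfactory bulb were therefore open. Kl and Sostdc1 among them are on the choroid plexus list. With scaling over all 4 regions, that list summed to 2034 CPM in the median hippocampus library, 26.8 in neocortex, 75.2 in hypothalamus and 47.9 in olfactory bulb. Scaled over the 4 regions together, Dsp averaged 1.503 ± 0.537 CPM in hypothalamus and 2.50 ± 1.05 CPM in olfactory bulb (SD, n = 6 each), and C1ql2 14.5 ± 1.95 CPM in hypothalamus and 0.675 ± 0.317 CPM in olfactory bulb. Some genes that were far higher in hippocampus than in neocortex were not particular to it: Lhx9 averaged 25.5 ± 9.11 CPM in hypothalamus and 1.28 ± 0.405 CPM in olfactory bulb, and Amigo2 56.4 ± 6.55 CPM in hypothalamus and 46.2 ± 2.87 CPM in olfactory bulb. Striatal genes summed to 237.2 CPM in the median hippocampus library, 1449 in neocortex, 537.1 in hypothalamus and 364.1 in olfactory bulb. By the same measure the dentate, CA1 and CA3 lists were highest in hippocampus and the layer 2/3 list in neocortex. The CA2 list had 396 CPM in hippocampus and 530 in olfactory bulb, and the mossy cell list 54.2 and 457. The layer 4 list had 312 CPM in neocortex, 344 in hypothalamus and 333 in olfactory bulb. The layer 5 and layer 6 lists were highest in olfactory bulb.

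Separate fits of the same organs at 13 later time points, from 1 day to 12 weeks of diet, shared no library with the 0-day comparison. Of the 1014 genes that differed at least 2-fold at 0 days, 903 to 967 were called in the same direction at each later time point, where 57.8% of all genes tested were called at 1 day, 57.3% at 3 days, 56% at 7 days, 59.7% at 10 days, 60.1% at 2 weeks, 58.9% at 3 weeks, 62.2% at 4 weeks, 59.9% at 5 weeks, 62.1% at 6 weeks, 62% at 7 weeks, 61.7% at 8 weeks, 52.2% at 10 weeks and 51.9% at 12 weeks. At all 13 time points 885 of them could be tested, and 791 were called the same way at every one. Angptl2, Col8a1 and Slc13a4 were called in the opposite direction at 1 time point, 2 weeks, with 0-day differences of 1.06, 1.65 and 1.07, and Col8a1 is on the choroid plexus list. These 3 overlapped between the organs at 0 days and were named after their values were seen. Among genes at least 4-fold apart at 0 days, the smallest SD over the 14 time points belonged to Slit1, Nr3c2, Tanc1, Rgs9, Cabp7, Npy2r, Cpne6 and Cpne7. Nr3c2 ran from 1.95 to 2.19 at later time points, Cabp7 from 3.66 to 3.96 and Rgs9 from -2.90 to -2.69. Npy2r, a presynaptic neuropeptide Y receptor, was higher by 2.88 at 0 days and from 2.72 to 3.05 later, Cpne7 and Cpne6, calcium-dependent membrane-binding copines, by 2.71 and 2.05 at 0 days, and Tanc1, a postsynaptic scaffold, by 2.16. Dsp ranged from 6.16 to 8.11 and Otof from -3.27 to -2.46, while Ttr ranged from 1.73 to 9.35. Over the 18 members tested at all 14 time points, the median of the striatum list ran from -3.39 to -2.79 later, and that of the layer 2/3 list from -1.45 to -1.18.

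**Figure D5:**
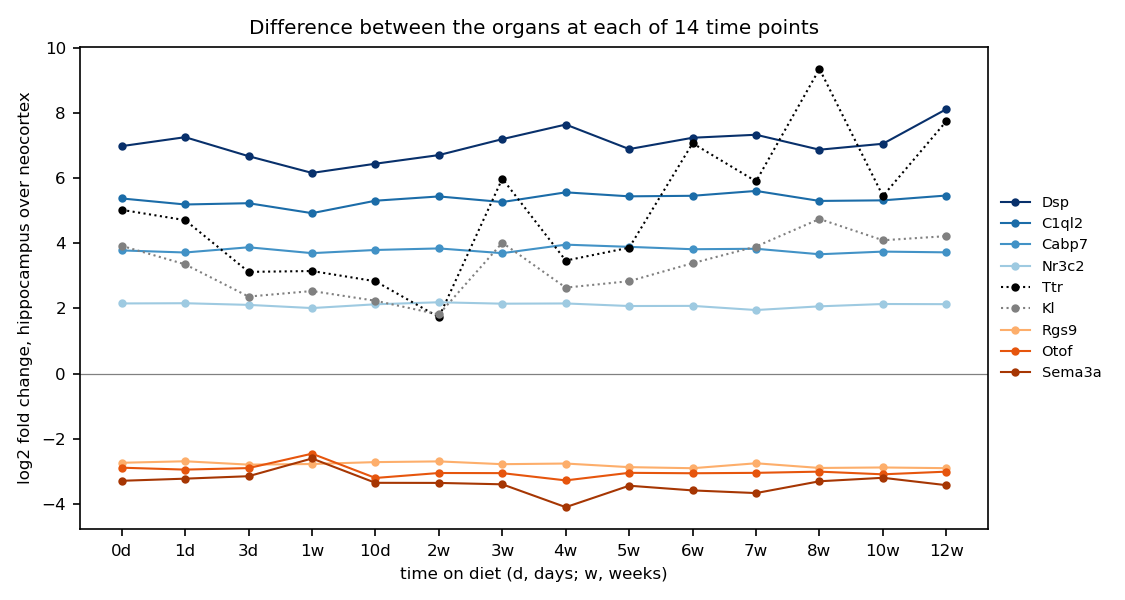
Log2 fold change of hippocampus over neocortex for 9 genes at each of 14 time points on the diet, each point a separate fit of 6 and 6 libraries. Nr3c2, Cabp7, C1ql2, Rgs9 and Otof keep nearly level lines, whereas the dotted lines of the choroid plexus genes Ttr and Kl swing, Ttr from 1.73 to 9.35.

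Whether a difference between the organs itself changed by 12 weeks was tested with an interaction term over 24 libraries. Of 14568 genes 2118 (14.5%) changed, 1283 (8.81%) towards hippocampus and 835 (5.73%) towards neocortex, and 22 (0.151%) by 2-fold or more. Igfbpl1 went from 5.87 ± 1.09 to 1.58 ± 0.512 CPM in hippocampus and from 1.69 ± 0.432 to 0.948 ± 0.167 CPM in neocortex (mean ± SD, n = 6), a change of the difference of -1.07 ± 0.30 (SE, edgeR adjusted p = 0.0161) on the log2 scale. Drd5 went from 14.6 ± 2.104 to 18.7 ± 2.14 CPM in hippocampus and from 1.72 ± 0.541 to 1.17 ± 0.334 CPM in neocortex, and its difference grew by 0.89 ± 0.24 (SE, edgeR adjusted p = 0.0113). Crh, the stress peptide corticotropin-releasing hormone, went from 2.58 ± 0.550 to 2.08 ± 0.283 CPM in hippocampus and from 6.56 ± 1.24 to 9.81 ± 1.37 CPM in neocortex, a change of -0.88 ± 0.21 (SE, edgeR adjusted p = 0.00482). Cckbr, a cholecystokinin receptor, went from 10.1 ± 1.66 to 6.84 ± 1.13 CPM in hippocampus and from 42.7 ± 2.05 to 53.5 ± 1.67 CPM in neocortex, a change of -0.87 ± 0.12 (SE, edgeR adjusted p = 1.06e-05), and Sstr2, a somatostatin receptor, from 9.11 ± 1.16 to 8.59 ± 1.36 CPM in hippocampus and from 14.03 ± 1.26 to 23.3 ± 0.838 CPM in neocortex, a change of -0.81 ± 0.12 (SE, edgeR adjusted p = 4.53e-05). The log2 difference of Mbp went from 0.27 at 0 days to -0.22 at 12 weeks, a change of -0.49 (edgeR adjusted p = 6.8e-06). Diet and age changed together over these 12 weeks and cannot be told apart here.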

How the data were processed

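RNA-seq reads were counted per gene by the authors, and the values analysed are the raw counts they deposited. Per the submitters' processing notes the genome was GRCm38 (mm10), the aligner HISAT2 2.1.0 and the counter featureCounts 1.6.3, and Trimmomatic 0.38, SAMtools 1.9 and FastQC 0.11.7 are also listed. Per the labels' protocols, total RNA was poly(A)-selected and libraries were strand-specific. Columns were matched to samples by library name, and 924 library columns of other organs were not used.

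The 12 libraries at 0 days were fitted with edgeR 4.0.16 (R 4.3.3): TMM factors, a filter on low counts (filterByExpr), the quasi-likelihood test and Benjamini-Hochberg adjustment over 14372 genes at 0.05. A standard error is the log2 fold change divided by the root of F. CPM used TMM factors, and RPKM used the merged length of all annotated exons of a gene. Exons and gene positions were those of GENCODE release M21. Later time points were fitted separately, and the change to 12 weeks with an interaction term. On simulated counts with 200 changed genes among 14372, the 0-day test recovered 82.1% at 1.5-fold, 95.5% at 2-fold and 100% at 4-fold, and 3.65% of its calls were false. The simulated counts were drawn with the spread estimated by edgeR, and in the data 59.3% of genes were called. These rates therefore need not hold for the real libraries.

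The genes named were the 12 highest and 12 lowest log2 fold changes among called genes with no overlap and a mean of at least 5 CPM in the higher organ, the 4 members of each of 35 lists and the 3 of each of 19 families with the smallest p, all members of the field, layer and regulator lists as far as space allowed, markers of other cells, the 10 largest changes to 12 weeks in each direction as far as described, and the 8 steadiest genes. Some genes that the rule names are not reported here. Other genes are marked as chosen later. The members and lists were chosen with earlier results of these data known. Alternatives covered DESeq2 1.42.0, limma 3.58.1 (voom with quality weights), other size factors, no filter, GC and length offsets (R splines), a replicate block, a test against 2-fold and leaving out libraries. Total counts of 12063134 to 17248161 set the precision.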

Additional observations from a re-analysis of the deposited data

Results flagged for a closer look

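Within an organ, 26 of 418 sets of 6 libraries at 0 days had 1 library far from the rest by Dixon's ratio, over the genes named above, and chance alone gives about 1 in 20. Hippocampus replicate 1 was far above the others for Camk2n1 at 969.6 CPM, Cckbr at 13.5 CPM, Cux2 at 48.6 CPM, Grm8 at 7.73 CPM, Npas4 at 31.1 CPM and Tbr1 at 54.2 CPM. Hippocampus replicate 2 was far above the others for Nr3c1 at 77.2 CPM and far below them for Pvalb at 22.4 CPM. Hippocampus replicate 3 was far above the others for Emx1 at 18.6 CPM and far below them for Fzd3 at 62.8 CPM and Gad2 at 91.3 CPM. Hippocampus replicate 5 was far below the others for Gabrd at 19.0 CPM. Hippocampus replicate 6 was far above the others for Htr1d at 0.401 CPM, Kcng2 at 38.5 CPM, Prox1 at 127 CPM and Stxbp6 at 89.4 CPM and far below them for Adcyap1 at 3.79 CPM. Neocortex replicate 1 was far above the others for Gad2 at 240.2 CPM and far below them for Fezf2 at 21.9 CPM. Neocortex replicate 2 was far below the others for Hsd11b1 at 9.09 CPM and Oprk1 at 11.4 CPM. Neocortex replicate 3 was far above the others for Pcdh10 at 229 CPM and Slc9a4 at 1.16 CPM. Neocortex replicate 4 was far above the others for Pdzd2 at 135 CPM and far below them for Cntnap5a at 57.9 CPM. In the same library Dmrt3 at 0.0631 CPM was a single read, with the other 5 neocortex libraries at 0.

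Some of the 209 genes named above, such as Cckbr and Sstr2, were named for their change from 0 days to 12 weeks. Their share and that of all genes are therefore not a like comparison. The difference between the organs itself changed over that time for 47 of the 209, by the interaction term (edgeR, adjusted p under 0.05 over 14568 genes), where 14.5% of all genes changed. It moved towards hippocampus, on the log2 scale, for Drd5 at 0.89, Htr1a at 0.78, Glis3 at 0.73, Pcp4 at 0.65, Rorb at 0.63, Pcdh20 at 0.62, Gabrb2 at 0.52, Zbtb20 at 0.50, Npr3 at 0.48, Slc1a2 at 0.46, Htr2a at 0.43, Grin2a at 0.40, Sox5 at 0.37, Bhlhe22 at 0.37, Camk2n1 at 0.37 and Prox1 at 0.36. Smaller moves in the same direction were those of Cx3cr1 at 0.34, Cntn3 at 0.34, Rfx3 at 0.33, Grin2b at 0.32, Fzd3 at 0.31, Cntnap5a at 0.31, Efnb2 at 0.29, Stxbp6 at 0.28, Scn4b at 0.26, Scn1a at 0.26, Hs3st4 at 0.25, Gria2 at 0.25, Gad2 at 0.24, Nr2f1 at 0.22, Pcdh7 at 0.19 and Camk2a at 0.18. It moved towards neocortex for Igfbpl1 at -1.07, Crh at -0.88, Cckbr at -0.87, Sstr2 at -0.81, Mbp at -0.49, Egr1 at -0.48, Neurod6 at -0.44, Bhlhe40 at -0.39, Stmn1 at -0.36, Emx1 at -0.35, Cpne6 at -0.31, Hsd11b1 at -0.29, Lrrtm1 at -0.24, Reln at -0.21 and Lmo4 at -0.17. Diet and age cannot be told apart in these changes.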

How the results depend on the processing

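Without a filter on low counts, 667 genes were at least 2-fold higher in hippocampus, against 443, and a test against a 2-fold threshold (glmTreat) kept 242 higher and 365 lower, against 443 and 571. By construction, the first adds genes with few counts and the second asks more than a fold estimate past 2. Leaving out each library in turn gave 4120 to 4311 genes higher and 4002 to 4201 lower, 426 to 496 and 569 to 600 at least 2-fold, and for the change to 12 weeks 916 to 1286 towards hippocampus and 738 to 1214 towards neocortex. DESeq2 gave 4221 higher and 4207 lower, and GC and length offsets 4009 and 3966. With these offsets the signs of Ccn3 (0.0127, or 0.0120 with the replicate block) and Pou3f3 (0.0172 and 0.0165) turned, and the cause was not tested. Same-numbered hippocampus and neocortex libraries correlated in their deviations at -0.019 to 0.173, 2 of 6 above 0.1, and 2 of 6 matched their own number best. Low correlations cannot exclude that equal numbers are 1 mouse. The numbers were not taken as pairs because neither the labels nor the design text tie them to 1 mouse. With the replicate block, 4374 genes were higher and 4268 lower, 438 and 572 at least 2-fold, and for the change to 12 weeks 1388 and 923. Without the 5 libraries richest in choroid plexus transcripts for their organ, an alternative chosen after seeing the data, 3480 genes were higher and 3662 lower. Of the 1014 calls of at least 2-fold, 906 were shared. Over the named genes 5384 values under alternatives stayed on their side of the threshold, 64 lost the call, 29 gained it and 4 called values changed sign. Of the 5384, 27 were uncalled values whose sign turned. Ebf3, Emx1, Lhx2 and Plk5 each lost the call under at least 1 alternative, and Lrrtm4, Calcrl, Cldn5 and Hbb-bs gained it. Of the counts of members called per list, 2213 stayed within 1.5 times the main count under the alternatives and 55 did not.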
